A study of Mus musculus with 3 samples.

Results

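The genes described here are 38 genes of glucose use: the transporters that bring glucose into the cell, the enzymes of glycolysis, the regulators and transporters around pyruvate and lactate, and the enzymes of the pentose phosphate pathway. They were chosen by name, and all 38 were found among the 37646 genes of each count table. RNA was measured in 3 libraries of sorted splenic B220+GFP+ lymphoma cells, called tumours 1, 2 and 3, which form 1 group. All came from C57BL/6 mice of the pBIC2 model of ABC-type diffuse large B cell lymphoma, with floxed p53 and Blimp1 alleles (p53F/F, Blimp1F/F), IKK2ca alleles behind a floxed stop (stopF/stopF), the Cg1Cre/+ allele and the Eu-hBCL2tg/+ transgene, which carries human BCL2. Cg1-Cre recombines in cells that transcribe the immunoglobulin gamma 1 constant region, so the alleles were not switched in every cell of the mouse. B220 is a B cell surface marker and 7AAD removed dead cells before the sort. The labels give no age and do not say whether each library came from a separate mouse. No control sample was analysed here, so values describe 3 tumours and their spread (SD, n = 3 libraries), and no test between groups could be made.

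Glycolysis splits 1 glucose into pyruvate in the cytosol and yields ATP and NADH. Pyruvate is then either oxidised in the mitochondrion by pyruvate dehydrogenase or reduced to lactate, which regenerates NAD+ and leaves the cell through monocarboxylate transporters. The pentose phosphate pathway branches off at glucose 6-phosphate and supplies NADPH and ribose for nucleotides. Several steps are served by alternative isoenzymes from different genes, and lymphocytes raise glucose uptake and glycolysis when they are activated.

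The libraries held 15576975 to 17014022 counts. Pan B cell markers (10 genes) summed to 8658, 13266 and 11599 CPM in tumours 1, 2 and 3. CPM is the unit of counts scaled to a common library size. T cell markers (11 genes) summed to 197, 312 and 1432 CPM in tumours 1, 2 and 3, and Cd3e, a defining T cell gene, had 0, 23 and 1023 counts. Macrophage and monocyte markers (10 genes) summed to 40.3, 410 and 185 CPM, neutrophil markers (8 genes) to 0.199, 16.9 and 42.3 CPM, and NK cell markers (5 genes, Ncr1 without a count) to 1.86, 2.33 and 47.8 CPM. Proliferation genes (15 genes) summed to 3724, 2015 and 4002 CPM. In bulk RNA, fewer cells that express a gene and less RNA per cell cannot be told apart.

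Most of the 38 genes reached 10 CPM in every tumour, at a share near that of all genes. The main route of glycolysis and the pentose phosphate pathway made up most of the RNA of the 38. The 38 genes took 0.435%, 0.421% and 0.422% of all counts in tumours 1, 2 and 3. Of the 36 genes with a mean of at least 1 CPM, 25 (69.4%) reached 10 CPM in every tumour, beside 62.1% of all 12445 genes with that mean. At 100 CPM in every tumour were 9 of the 36 (25%), beside a background of 14%: Aldoa, Gpi1, Ldha, Pkm, Tkt, Hk1, Pgd, Tpi1 and Taldo1. The median level of the 36 was 5.95, 5.88 and 6.20 log2 CPM in tumours 1, 2 and 3, beside 4.87, 4.83 and 4.88 for all genes. Eno2 had a mean below 1 CPM and Ldhb had no count.

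**Figure D1:**
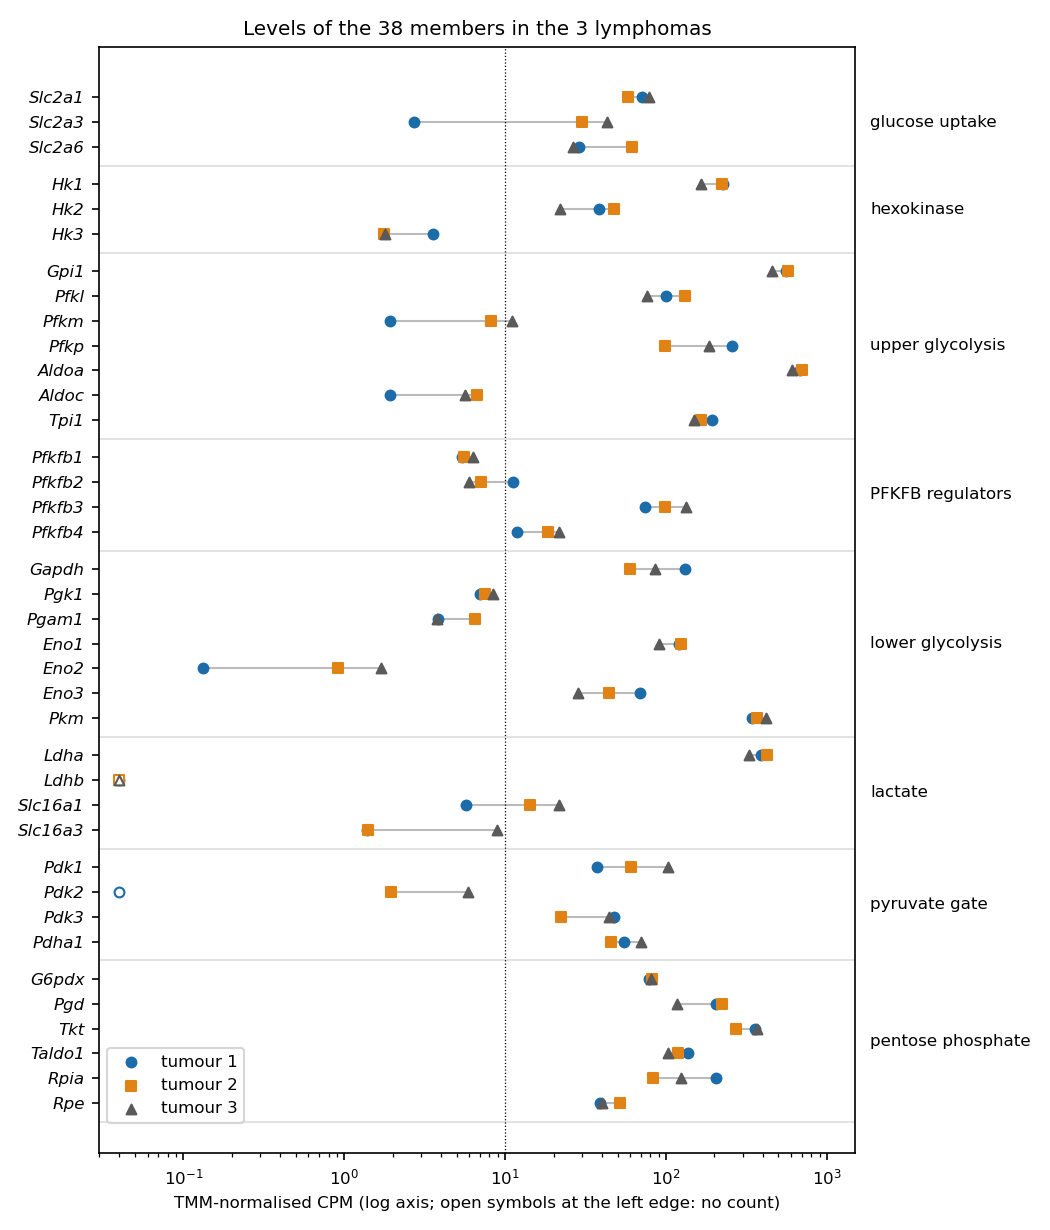
TMM-normalised CPM (log axis) of each of the 38 genes, grouped by role, with 1 symbol per tumour, a grey line over the range of nonzero values and a dotted line at 10 CPM. Open symbols at the left edge mark no count, as for Ldhb in all 3 tumours and Pdk2 in tumour 1. Aldoa, Gpi1, Ldha, Pkm and Tkt lie furthest right, and Slc2a3 has tumour 1 far to the left of tumours 2 and 3.

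Slc2a1 had the highest CPM of the 3 glucose transporters in tumours 1 and 3, Slc2a6 in tumour 2, and Slc2a3 was low in tumour 1. Slc2a1 encodes GLUT1, the widely expressed glucose transporter, and was at 70.5, 58.0 and 78.6 CPM in tumours 1, 2 and 3. These levels stayed within 1.36-fold of each other. Slc2a3 encodes GLUT3, a high-affinity transporter (ENSMUSG00000003153, chromosome 6, 122727809 to 122801640, mm10), and was at 2.72, 29.9 and 42.8 CPM from 41, 488 and 759 counts. It was 11.01-fold higher in tumour 2 and 15.7-fold higher in tumour 3 than in tumour 1, the widest range among the genes with a count in every tumour. Slc2a6 encodes GLUT6 and was at 29.0, 61.2 and 26.5 CPM, highest in tumour 2. Per kb of exon, so that the genes could be compared, Slc2a1 made up 57.0% ± 13.8 of the 3 transporters, and in tumour 2 Slc2a6 led with 48.0% against 41.6%.

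Hexokinase, which traps glucose as glucose 6-phosphate, came mainly from Hk1. Hk1, the broadly expressed isoenzyme, was at 227, 224 and 166 CPM. Hk2, the isoenzyme often raised in tumours, was at 38.6, 47.4 and 21.9 CPM, 2.16-fold higher in tumour 2 than in tumour 3. Hk3 was at 3.58, 1.78 and 1.80 CPM. Hk1 made up 78.7% ± 3.35 of hexokinase RNA per kb of exon and Hk2 19.2% ± 3.66, the same order in all 3 tumours.

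The upper steps, from glucose 6-phosphate to the triose phosphates, held the most abundant gene of the set. Gpi1, the phosphoglucose isomerase, was at 555, 574 and 458 CPM. Aldoa, the aldolase that splits fructose 1,6-bisphosphate, was at 676, 703 and 611 CPM, and Aldoc, the brain-enriched form, at 1.92, 6.68 and 5.64 CPM. Aldoa thus made up 99.4% ± 0.333 of aldolase RNA per kb of exon. Tpi1, which interconverts the triose phosphates, was at 193, 165 and 149 CPM. None of Gpi1, Aldoa and Tpi1 reached a 1.5-fold range between tumours.

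Phosphofructokinase, the committed step of glycolysis, had a different leading gene in tumour 2 than in tumours 1 and 3. Pfkp, the platelet-type subunit, was at 259, 98.5 and 186 CPM, lowest in tumour 2. Pfkl, the liver-type subunit, was at 100.01, 131 and 76.6 CPM, highest in tumour 2. Pfkm, the muscle-type subunit, was at 1.92, 8.21 and 10.99 CPM, 4.27-fold and 5.72-fold higher in tumours 2 and 3 than in tumour 1. Per kb of exon Pfkp made up 55.4%, 24.9% and 48.4% of the family and Pfkl 43.0%, 66.7% and 40.1%. Pfkl led in tumour 2 and Pfkp in tumours 1 and 3 also by raw counts. The same held per kb of principal transcript and per kb of sequence not shared with other genes. These scales divide the same counts by other lengths or by none.

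The PFKFB enzymes make and break down fructose 2,6-bisphosphate, the strongest activator of phosphofructokinase. Pfkfb3, the form with the highest kinase activity, was at 73.9, 99.1 and 134 CPM and made up 68.3% ± 3.73 of the family per kb of exon. Pfkfb4 was at 11.9, 18.5 and 21.6 CPM, Pfkfb2 at 11.1, 7.05 and 5.97 CPM and Pfkfb1 at 5.44, 5.58 and 6.31 CPM. Pfkfb3 and Pfkfb4 were lowest in tumour 1 and highest in tumour 3, by 1.81-fold and 1.82-fold, and Pfkfb2 had the opposite order, with tumour 1 1.86-fold above tumour 3.

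**Figure D2:**
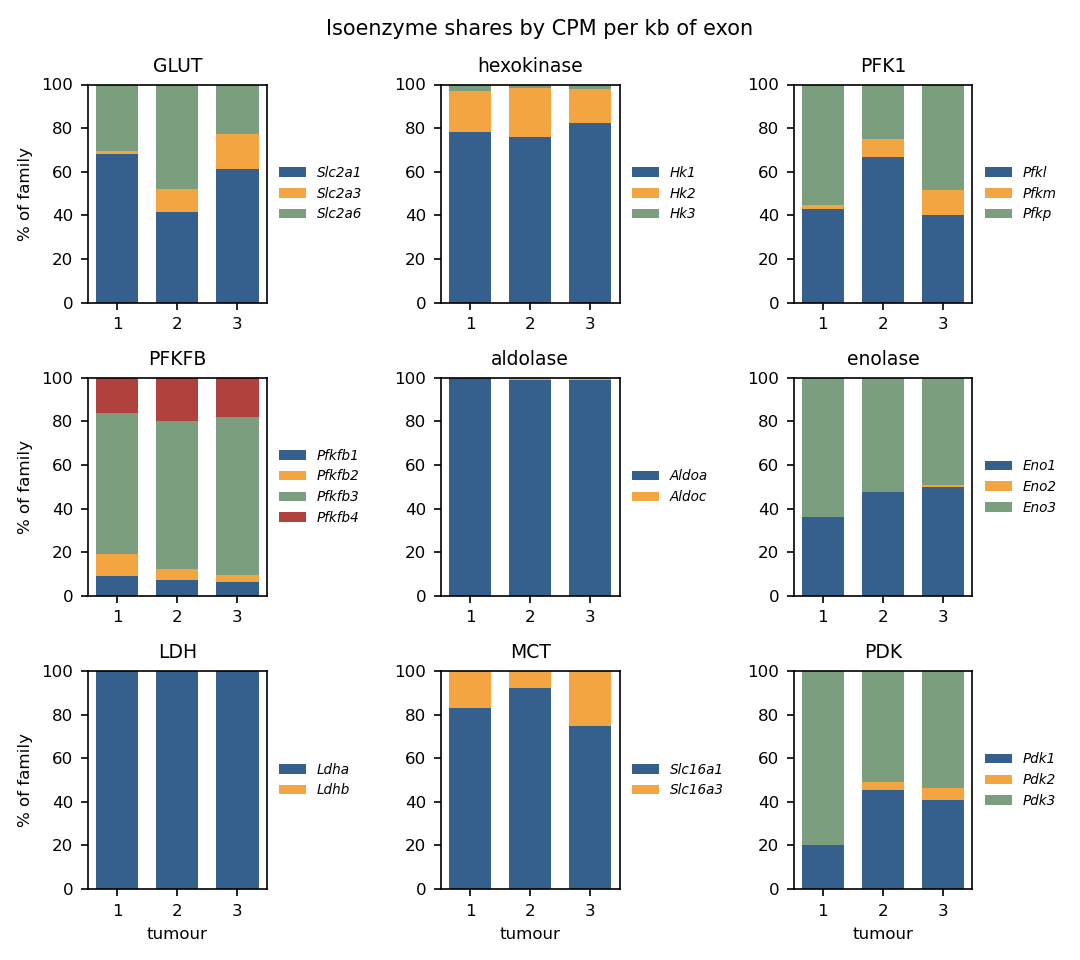
Share of each isoenzyme in its family (% of summed CPM per kb of exon, 1 stacked bar per tumour) for 9 families. Slc2a6 exceeds Slc2a1 and Pfkl exceeds Pfkp in tumour 2 only among the 3 tumours, whereas Hk1, Pfkfb3, Aldoa, Ldha and Slc16a1 lead in every tumour.

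In the lower steps of glycolysis Gapdh was well expressed, and Pgk1 and Pgam1 stayed below 10 CPM in every tumour. Gapdh, which oxidises glyceraldehyde 3-phosphate, was at 132, 59.6 and 85.5 CPM, 2.21-fold higher in tumour 1 than in tumour 2. Pgk1, the phosphoglycerate kinase that makes the first ATP of the payoff phase (ENSMUSG00000062070, chromosome X, 106187100 to 106203699), was at 6.96, 7.48 and 8.45 CPM from 105, 122 and 150 counts. Pgam1, the phosphoglycerate mutase (ENSMUSG00000011752, chromosome 19, 41911923 to 41918660), was at 3.84, 6.498 and 3.78 CPM from 58, 106 and 67 counts. Per kb of exon, Pgk1 was at 3.40 ± 0.338 CPM and Pgam1 at 2.37 ± 0.783 CPM, while the steps on either side were at 22.4 ± 8.87 CPM (Gapdh) and 48.1 ± 14.4 CPM (the 3 enolases together). Pgam2, the muscle mutase, is not among the 38 genes. Per kb of exon it was at 7.34, 6.20 and 3.15 CPM in tumours 1, 2 and 3, above Pgam1 in each on that scale. With Pgam2 the mutase step came to 7.94 ± 2.497 CPM per kb. In plain CPM Pgam2 was at 6.16, 5.21 and 2.65, above Pgam1 in tumour 1 only. Pgam2 was not searched for sequence shared with other genes. The level of Pgk1 had little spread between tumours (SD 0.14 on the log2 scale).

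Several of these genes have near copies in the mouse genome, many of them processed pseudogenes, and reads of 50 bases may match several places. Windows of Gapdh were shared with 334 other genes, those of Pgk1 with 7 and those of Pgam1 with 5. The coding sequences of Gapdh, Pgk1 and Pgam1 matched a transcript of another gene, with at most 1 mismatch, in every 50-base window. Over the whole principal transcript, 84.8% of windows were shared for Gapdh, 83.3% for Eno1, 68.3% for Pgk1, 59.4% for Ldhb, 56.4% for Pkm, 48.7% for Gpi1, 42.9% for Ldha and 41.8% for Pgam1. In all, 13 of the 38 genes had at least 20% of windows shared and 16 had none. The 2 windows below, from the GENCODE M21 coding sequences of Pgk1 (bases 603 to 652) and Pgam1 (bases 359 to 408), are shown as examples of read-length sequence that another annotated gene also carries.
Pgk1: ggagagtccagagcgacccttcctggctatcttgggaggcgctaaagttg
Pgam1: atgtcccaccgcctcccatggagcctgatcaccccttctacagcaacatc
How reads with several matches were counted is not given in the sources used here, and the part of shared sequence in these levels was not tested. Of the coding windows of the abundant genes, 86.7% were shared for Pkm, 78.4% for Gpi1, 77.4% for Ldha and 42.8% for Aldoa. Divided by the length of unshared windows only, Gapdh came to 442 ± 175 CPM per kb and Eno1 to 337 ± 56.4, Pgk1 to 13.6 ± 1.35 and Pgam1 to 4.68 ± 1.54. That scale assumes that all counts came from unshared sequence and is a description only.

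**Figure D3:**
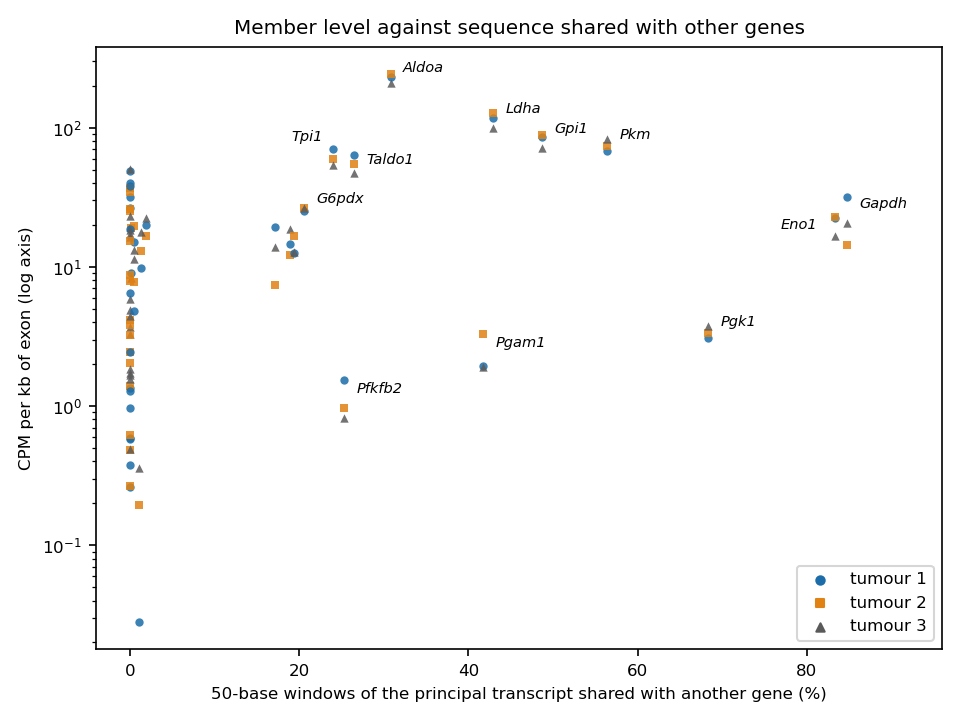
CPM per kb of exon (log axis) against the share of 50-base windows of the principal transcript that match another gene, with 1 symbol per tumour for each gene with a count; libraries without a count are not drawn, and genes from 20% are named. Gapdh and Eno1 lie furthest right at 84.8% and 83.3%, and Pgk1 (68.3%) and Pgam1 (41.8%) lie low on the level axis.

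Enolase, the next step, was shared between Eno1 and Eno3, and their order depended on the length used. Eno1, the ubiquitous form, was at 120, 124 and 89.9 CPM. Eno3, the muscle form, was at 69.3, 44.0 and 28.5 CPM, 2.43-fold higher in tumour 1 than in tumour 3. Eno2, the neuronal form, had 2, 15 and 30 counts. Per kb of exon Eno3 made up 55.1% ± 7.90 of enolase RNA, but 28.8% of raw counts, 34.3% per kb of principal transcript and 8.26% per kb of unshared windows, where Eno1 made up 91.6%. Pkm, the pyruvate kinase of most cells, was at 342, 368 and 417 CPM, within 1.22-fold between tumours.

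At the lactate branch Ldha had counts and Ldhb had none. Ldha, the lactate dehydrogenase subunit that favours lactate formation, was at 392, 423 and 327 CPM from 5911, 6899 and 5806 counts. Ldhb, the subunit of oxidative tissues (ENSMUSG00000030246, chromosome 6, 142490249 to 142507957), had no count in any tumour. Counts of 0 allow Ldhb up to 0.0508%, 0.0435% and 0.0517% of lactate dehydrogenase counts, for counting error only. Shared sequence covered 59.4% of the windows of Ldhb, and the pseudogene Ldhb-ps, which shares the most windows with it, had 9, 27 and 8 counts; the part of shared sequence in the count of 0 was not tested.

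Lactate export RNA was low and uneven. Slc16a1 encodes MCT1 and was at 5.70, 14.2 and 21.8 CPM, 3.82-fold higher in tumour 3 than in tumour 1. Slc16a3 encodes MCT4, the exporter of highly glycolytic cells, and was at 1.39, 1.41 and 8.90 CPM from 21, 23 and 158 counts. Slc16a1 made up 83.4% ± 8.90 of the pair per kb of exon.

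The pyruvate dehydrogenase kinases, which switch off pyruvate oxidation in the mitochondrion, stood at different levels from tumour to tumour. Pdk1 was at 37.2, 61.0 and 102 CPM, 2.75-fold higher in tumour 3 than in tumour 1. Pdk3 was at 47.7, 22.4 and 44.2 CPM, lowest in tumour 2. Pdk2 had 0, 32 and 104 counts (0, 1.96 and 5.86 CPM). Against a floor of 3 counts in tumour 1 (0.199 CPM), Pdk2 was at least 9.87-fold higher in tumour 2 and at least 29.5-fold higher in tumour 3. Pdk3 made up 61.3% ± 15.9 of kinase RNA per kb of exon, whereas Pdk1 made up 60.8% of raw counts. Pdha1, the subunit of pyruvate dehydrogenase that these kinases phosphorylate, was at 54.9, 45.5 and 69.9 CPM.

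The pentose phosphate genes were all above 10 CPM in every tumour. G6pdx, the entry enzyme that makes NADPH, was at 78.0, 82.1 and 81.0 CPM, the smallest spread of the genes with a count (SD 0.04 on the log2 scale). Pgd, the second NADPH-forming enzyme, was at 205, 223 and 118 CPM, lowest in tumour 3. In the non-oxidative branch, Tkt (transketolase) was at 357, 271 and 369 CPM and Taldo1 (transaldolase) at 137, 119 and 103 CPM. Rpia, which forms ribose 5-phosphate, was at 205, 82.6 and 124 CPM, 2.48-fold higher in tumour 1 than in tumour 2, and Rpe, the epimerase, at 38.8, 51.6 and 39.9 CPM. Per kb of exon Taldo1 (55.2 ± 7.84) and Tkt (45.2 ± 7.24) exceeded G6pdx (26.1 ± 0.688), Pgd (28.2 ± 8.70), Rpia (25.6 ± 11.6) and Rpe (14.0 ± 2.27).

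Between the tumours, 14 of the 36 genes (38.9%) had at least a 2-fold range, beside 41.3% of all genes, and 4 of the 36 (Slc2a3, Pfkm, Slc16a3 and Pdk2) a 4-fold range, beside 18.3%. These shares are near or below the background. These counts of genes use log2 CPM with a prior count of 2, which understates the change of low genes, so Hk3, with a plain CPM ratio of 2.01, is not among the 14; folds given for single genes are plain CPM ratios. The median SD between tumours was 0.440 log2 units for the 36 genes and 0.439 for all genes. Among genes at 10 CPM in every tumour, 8 of 25 had a 2-fold range (32.0%, background 23.3%): Hk2, Pdk1, Pfkp, Pdk3, Slc2a6, Rpia, Gapdh and Eno3.

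Tumour 1 lay at least 2-fold below both other tumours for 5 genes, Slc2a3, Pfkm, Aldoc, Slc16a1 and Pdk2 (13.9%, background 10.7%), and above both for none (background 5.19%). Tumour 2 lay at least 2-fold above both others for Slc2a6 alone (2.78%, background 4.9%) and below both for none (background 3.58%). Tumour 3 lay at least 2-fold above both others for Slc16a3 and Pdk2 (5.56%, background 7.67%) and below both for none (background 4.06%). Of the 36, 10 were highest in tumour 1, 12 in tumour 2 and 14 in tumour 3, beside backgrounds of 33.6%, 31.1% and 35.3%. The lowest value fell in tumour 1 for 14, in tumour 2 for 8 and in tumour 3 for 14, beside backgrounds of 38.1%, 28.9% and 33%.

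The order with tumour 1 lowest and tumour 3 highest was held by 11 of the 36 genes (30.6%, background 21.6%): Slc2a3, Pfkm, Pfkfb1, Pfkfb3, Pfkfb4, Pgk1, Pkm, Slc16a1, Slc16a3, Pdk1 and Pdk2. For 6 of them, Slc2a3, Pfkm, Slc16a1, Slc16a3, Pdk1 and Pdk2, the range was at least 2-fold (16.7%, background 10.8%). Tumour 2 against tumour 1 alone gave 11.01-fold for Slc2a3, 4.27-fold for Pfkm, 2.495-fold for Slc16a1, 1.64-fold for Pdk1, 1.01-fold for Slc16a3 and at least 9.87-fold for Pdk2, so Pdk1 and Slc16a3 were 2-fold apart only with tumour 3. The opposite order was held by 5, Hk1, Tpi1, Taldo1, Pfkfb2 and Eno3 (13.9%, background 18.2%). T cell markers were also highest in tumour 3 (9 of 11 genes, sums above). Neutrophil markers were lowest in tumour 1 for 8 of 8 genes and highest in tumour 3 for 7. Macrophage markers were lowest in tumour 1 for 9 of 10 genes and highest in tumour 2 for 9. Pan B cell markers were lowest in tumour 1 for 6 of 10 genes and in tumour 3 for 4. Proliferation genes were highest in tumour 3 for 10 of 15 and lowest in tumour 2 for 14. The part of all these markers in the orders was not tested.

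**Figure D4:**
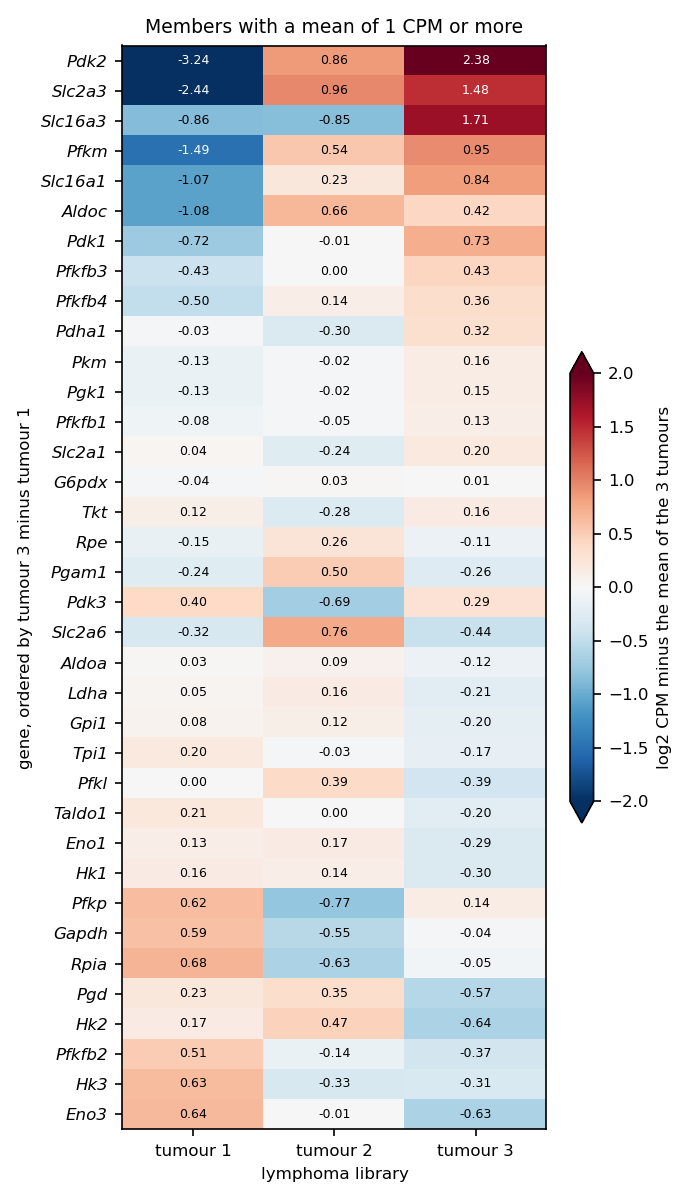
Log2 CPM of each of the 36 genes with a mean of at least 1 CPM minus its mean over the 3 tumours (colour and printed value), ordered by the difference of tumour 3 minus tumour 1. Pdk2, Slc2a3, Slc16a3, Pfkm and Slc16a1 stand at the top with tumour 1 lowest, and Eno3 stands at the bottom with tumour 1 highest.

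Promoters of the 38 genes were searched for letters bound by known regulators of glycolysis. ACGTG and GCGTG are core letters of sites for hypoxia-inducible factors, and CACGTG is the E-box of Myc and its relatives; CACGTG contains ACGTG. The first listed RefSeq promoter of each gene was searched (GRCm38.p6, 250 bases before to 50 after the start, both strands). ACGTG or GCGTG was found in 29 of the 37 genes with an entry (78.4%), beside 43.8% of all 27025 promoters. The 27025 were not matched to the 37 for expression or base composition, and the part of either in these shares was not tested. ACGTG was found in 16 of 37 (43.2%, all promoters 19.7%), and CACGTG in 5 (13.5%, all promoters 7.24%): Slc16a1, Pfkfb2, Ldha, Pdk2 and Pfkm. Below are 60-base stretches upstream of the start for 4 of the 6 genes that were at least 2-fold apart with tumour 1 lowest and tumour 3 highest, with each ACGTG or GCGTG on either strand, and the E-box around it, in capitals. They come from chr2:71873119-71873178 (plus strand) for Pdk1, chr3:104638503-104638562 (plus) for Slc16a1, chr11:95041464-95041523 (minus) for Pdk2 and chr15:98092427-98092486 (plus) for Pfkm.
Pdk1: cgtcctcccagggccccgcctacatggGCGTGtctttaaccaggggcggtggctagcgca
Slc16a1: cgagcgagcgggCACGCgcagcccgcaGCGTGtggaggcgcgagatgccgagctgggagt
Pdk2: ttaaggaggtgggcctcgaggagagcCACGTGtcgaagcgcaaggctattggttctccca
Pfkm: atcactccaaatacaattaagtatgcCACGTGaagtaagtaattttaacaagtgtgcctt
Pdk2 and Pfkm carried the E-box letters and Pdk1 and Slc16a1 GCGTG in these stretches. Slc2a3 had no promoter entry. The promoter of Slc16a3 held ACGTG, but its stretch overlapped an annotated exon of the gene and is not printed. A match is a description of letters and not a bound site.

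Hif1a, the oxygen-regulated subunit of hypoxia-inducible factor, was at 45.9, 52.0 and 208 CPM, and Egln1, which encodes the oxygen sensor PHD2 and is itself a known target of the factor, at 1.26, 11.5 and 46.6 CPM. Both were highest in tumour 3, as were the T cell markers, whose part in these levels was not tested. Vhl, which marks the factor for degradation, was at 60.2, 30.0 and 25.9 CPM. Arnt, the partner of Hif1a, was at 74.5, 84.97 and 97.7 CPM. Egln3 and Bnip3, further known targets, were at or near 0, with 2, 2 and 10 counts of Egln3 and 0, 0 and 1 of Bnip3. Myc was at 712, 995 and 646 CPM, highest in tumour 2. Mlxip, a glucose-sensing factor, was at 270, 160 and 135 CPM, while Mlxipl had no count. Mtor was at 124, 221 and 93.4 CPM, Akt1 at 141, 105 and 159, Akt2 at 96.2, 59.9 and 56.1, Tfeb at 122, 121 and 94.8 and Bhlhe40 at 54.2, 44.1 and 50.1 CPM.

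Of 53 further genes of glucose metabolism, 52 were found, and 32 had a mean of at least 1 CPM. Of these 32, 18 reached 10 CPM in every tumour (56.25%, background 62.1%) and 17 had a 2-fold range (53.1%, background 41.3%). The same 18 were 43.9% of the 41 genes with a count, where the background was 30.3%. The most abundant were Prps2, which makes the ribose donor for nucleotides, at 189, 308 and 192 CPM, and Txnip, an inhibitor of glucose uptake, at 251, 209 and 185 CPM. Pgls, the lactonase between G6pdx and Pgd, was at 140, 66.8 and 81.4 CPM. Pygb, a glycogen phosphorylase, was at 49.2, 106 and 155 CPM, G6pc3 at 82.6, 90.7 and 66.7 and the ADP-dependent glucokinase Adpgk at 80.1, 63.3 and 80.9 CPM. The widest spread was found for H6pd, the endoplasmic reticulum counterpart of G6pdx, at 4.51, 25.8 and 29.3 CPM, and for Gapdhs, the sperm form of Gapdh, at 22.4, 26.4 and 1.80 CPM, together with the low genes Slc16a7 (0, 2.57 and 0.676 CPM), Eno4 (0.464, 6.25 and 1.01), Pygl (0.199, 2.82 and 2.71) and Gbe1 (0.530, 0.920 and 3.38). No count was found for 11 of the 52, among them Slc2a2, Slc2a4 and the gluconeogenic Fbp1 and Fbp2.

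The 38 genes lie on 14 chromosomes. Chromosome 6 holds 7 of them, and Eno2, Tpi1 and Gapdh lie there within a short stretch (starts at 124760053, 124810586 and 125161715) but had levels per kb of exon of 0.194, 61.3 and 22.4 CPM. Chromosome X holds 5, Pfkfb1, Pgk1, Pdk3, Pdha1 and G6pdx. Over 357 X-linked genes of the whole series, the median difference of tumour 3 minus tumour 1 was 0.17 on the log2 scale. Over 12057 autosomal genes it was 0.02. Both sets reach beyond the 38 genes.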

How the data were processed

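The 3 tables hold raw counts for each gene from polyA-selected, single-end reads of 50 bases, which the authors deposited. The submitters' processing notes name FastQC, the aligner STAR (2.5.2b), the counter featureCounts (1.6.0) and the build mm10. Not given in the sources used here: annotation release, strand setting and the handling of reads with several matches, so overlapping, antisense and near-identical genes are uncertain. Counts were scaled with TMM factors in edgeR 4.0.16 (R 4.3.3) after filterByExpr (11273 genes); CPM are TMM-normalised, and log2 CPM used a prior count of 2. Lengths and coordinates came from GENCODE M21, to which all 38 genes matched; a second Aldoa row was kept apart. Windows of 50 bases were matched with bwa 0.7.19. DESeq2 1.42.0 gave alternative size factors. Tables, searches and plots were made in Python 3.11.15 (pandas 2.3.3, matplotlib 3.10.9, SciPy 1.17.1 and NumPy 2.4.6). Intervals (95%) and floors (3 counts) cover counting error only. The counting of calls was tested on data simulated with less variation than these libraries, whose common biological coefficient of variation was 0.445. That test does not give the error of the calls at this spread.

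The labels gave 1 group, and the tumour numbers follow accession order and carry no meaning. The members and lists were chosen with earlier results of these data known. All 38 members were named, with the 6 highest and the 6 most variable other glucose genes and all 14 regulators; genes without a count were named as examples. Alternatives were other scalings, prior counts, filters and lengths, and leaving out each tumour. Some genes of the lists are not reported here.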

Additional observations from a re-analysis of the deposited data

How the results depend on the processing

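Of 127 recomputed summary values, 106 stayed within 1 SD or 1.5 times and 21 moved, and 295 of 304 recomputed levels of single genes stayed. Levels of single genes and isoenzyme shares were held against their own SD over the 3 tumours. Leaving out 1 of 3 tumours cannot move such a mean by more than that SD, so these checks could not fail. Among them only Ldhb, without a count, was an exception. DESeq2 factors and total counts had the same mean log library size as the main scaling. They could move the mean log2 level of a single gene only through the prior count, so these checks could hardly fail either. With TMM without immunoglobulin and mitochondrial genes, G6pdx moved from 6.33 to 6.43 log2 CPM (SD 0.04). With a tumour left out, the count of 2-fold genes was 4 to 9 in place of 14 (4 without tumour 1, 8 without tumour 2, 9 without tumour 3) and the median SD was 0.281 to 0.313, since fewer tumours span less. Counting only genes with a mean of at least 5 CPM left 3 genes with tumour 1 apart, 0 with tumour 3 apart and a median SD of 0.388, since low genes drop out. Tumour 2 stood apart for 2 genes with total counts or with TMM without immunoglobulin and mitochondrial genes. By raw counts the share of Hk1 was 84.6%, of Pfkfb3 76.0%, of Eno3 28.8% and of Pdk3 37.1%. Further lengths were added after seeing the data: per kb of unshared windows Hk1 was 88.3%, Pfkl 35.1%, Aldoa 99.7% and Eno3 8.26%, and per kb of principal transcript Hk1 was 88.3% and Eno3 34.3%. The leading gene by mean share changed from Pfkl to Pfkp and from Eno3 to Eno1 on all 3 other scales, and from Pdk3 to Pdk1 by raw counts. For the isoenzymes and tumour 2 the cause was not tested. No paired analysis was possible because the labels give 1 group. Genes below about 10 counts, such as Eno2 in tumour 1, are limited by depth.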

Other observations

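For the 13 genes with at least 20% of windows shared, the other gene that shared the most windows had 0 to 51 counts in each tumour. The highest were Gpi-ps, for Gpi1, with 28, 51 and 34 counts in tumours 1, 2 and 3, Gm6560, for Pkm, with 18, 28 and 26, and Ldhb-ps, for Ldhb, with 9, 27 and 8. Gm7336, for Gapdh, had 3, 0 and 1, and Gm9247, for Ldha, 4, 4 and 6. Whether reads that match a gene and its copy were counted for either is not known here. Among copies named after a member, Aldoa-ps4 had 14, 18 and 11 counts, Gapdh-ps14 had 5, 0 and 5, Eno1b had 1, 4 and 3, and Aldoart1 had 1, 2 and 4. Pgk1-rs7, Pgk1-ps1, Pgk1-ps3 and Ldha-ps had no count in any tumour. These genes were chosen after their values were seen. A second row named Aldoa (ENSMUSG00000114515) had 22, 26 and 6 counts.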
